A study of Danio rerio with 4 samples.

Results

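Oxidative phosphorylation is described here through 117 genes of the zebrafish skin transcriptome, out of 32105 genes in the count table, of which 26269 carry a symbol. The genes were taken by symbol, ignoring case: those starting with ndufa, ndufb, ndufc, ndufs, ndufv, sdha to sdhd, uqcr, cox4 to cox8 or atp5, and the mRNAs named mt-nd, mt-co, mt-cyb or mt-atp. Of these, 104 lie in nuclear DNA and 13 in mitochondrial DNA. The nuclear genes comprise 89 subunits (37 of complex I, 5 of complex II, 8 of complex III, 21 of complex IV and 18 of complex V) and 15 that are not subunits. The latter are 7 assembly factors of complex I, 4 of complex II, both genes of the ATP synthase inhibitor, the supercomplex factor COX7A2L and ndufa9b, which RefSeq lists as a pseudogene. The rule matches symbols alone, so CYC1, the cytochrome c1 subunit of complex III, is not among them. The 4 libraries came from the skin of male zebrafish of 5 months (1 library), 24 months (2 libraries, replicates 1 and 2) and 30 months (1 library). Fish of 5 and 30 months are labelled AB JxTu, and those of 24 months AB JxTu Tg(wt1b:GFP), a line with a green fluorescent reporter under wt1b sequence, so age and line cannot be told apart at 24 months. Whether 1 fish or a pool gave each library is not in the labels, which name no treatment.

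Oxidative phosphorylation makes most of the ATP of resting cells. Complex I passes electrons from NADH, and complex II from succinate, to ubiquinone; complex III hands them to cytochrome c, and complex IV to oxygen. Complexes I, III and IV pump protons across the inner mitochondrial membrane, and complex V, the ATP synthase, uses their return to make ATP. Every complex but II mixes subunits encoded in the nucleus and imported from the cytosol with a few encoded and translated inside the mitochondrion, so the transcripts of both genomes are needed to build it. Several nuclear subunits of complex IV exist as paralogues that, in mammals, are used in different tissues.

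The libraries held 18211821 counts at 5 months, 20070292 and 11833498 in replicates 1 and 2 at 24 months, and 20441260 at 30 months. Levels below are in CPM (a gene's counts relative to the library total, on 1 scale for all libraries), with the totals corrected for differences in composition (TMM scaling). Epidermal markers, led by krt5 at 21077 to 49234 CPM, took 3.78% to 6.62% of the counts. Other tissues were unevenly present: 7 markers of testis and germ cells took 0.0865% and 0.0884% of the counts at 5 months and in replicate 1 but 0.000135% and 0.00126% in replicate 2 and at 30 months, and 8 kidney tubule markers took 0.0355% at 5 months and at most 0.00123% elsewhere. The 6 dermis markers took 4.84%, 0.546%, 5.17% and 0.721% of the counts at 5 months, in replicates 1 and 2 and at 30 months. They were led by type I collagen genes. Of the 6, 4 were 2-fold or more lower at 30 than at 5 months (median log2 difference of the 6, -2.10), against 22.6% of all genes. These 4 were all collagen genes. DCN stood at 374, 322, 307 and 349 CPM and LUM at 287, 172, 289 and 307 CPM, in the same order. At 30 months both were near their 5-month level. The 5 erythrocyte markers took 0.0627%, 0.0117%, 0.00543% and 0.00959%, and 3 macrophage markers 0.0771%, 0.222%, 0.321% and 0.135%, in the same order. The part of these differences in the results was not tested.

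Transcripts of oxidative phosphorylation took the largest share of the counts in the 30-month library, in both genomes. The nuclear members took 1.12% of the counts at 5 months, 0.899% and 0.906% in the 24-month replicates and 1.65% at 30 months. The 13 mitochondrial mRNAs took 5.23%, 6.45%, 1.27% and 12.9% in the same order. The 30-month share was thus 1.48 times the 5-month share for the nuclear members and 2.46 times for the mitochondrial ones. The replicates of 24 months had nearly equal nuclear shares (replicate 2 at 1.01 times replicate 1) while their mitochondrial shares lay far apart (0.197 times). Counting error alone was small beside these differences, with exact binomial 95% intervals of 1.11% to 1.12% for the nuclear share at 5 months and 1.65% to 1.66% at 30 months. In such bulk RNA, a change in the number of cells rich in mitochondria and a change in RNA per cell cannot be told apart.

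**Figure D1:**
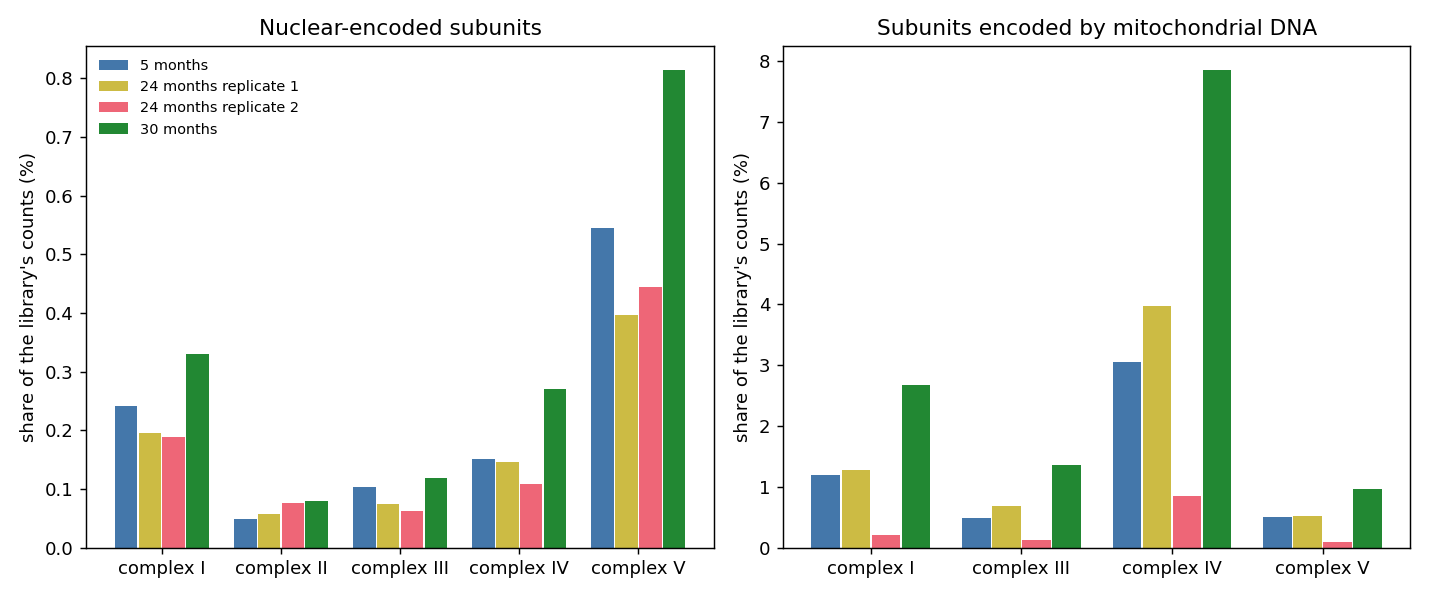
Bars give the percent of each library's counts that fell on the subunits of each complex, nuclear-encoded on the left and mitochondrially encoded on the right, on different scales, 1 bar a library. The 30-month library has the highest bar in every complex, from 0.0790% (nuclear, complex II) to 7.86% (mitochondrial, complex IV), and 24 months replicate 2 the lowest in every mitochondrial group.

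No member passed the test between ages. Of 116 tested members, 0 were called between 24 and 5 months, 0 between 30 and 24 months and 0 for a slope over age by edgeR's quasi-likelihood test, with Benjamini-Hochberg adjustment at 0.05 over 21535 genes, against 0.125%, 0.683% and 0.0% of all genes. The lowest adjusted p of a member was 0.245, for cox8b between 30 and 24 months. At an unadjusted p under 0.05 the counts of members were 1, 12 and 1 (all genes, 2.03%, 4.76% and 1.56%), and all 12 of the comparison of 30 with 24 months were higher at 30 months, where 1.78% of all genes were higher at that level. DESeq2 called 0 members in each comparison, where it called 43, 77 and 30 of the 21535 genes. For limma-voom these were 0 members in each comparison and 3, 7 and 0 genes. In the comparisons of groups the 24-month pair alone gives the spread, and the lone libraries are taken to vary like it; for the slope, departures of the ages from a line add to it.

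In most members the 30-month library ranked highest, but in only 6 of the 15 nuclear members that are not subunits. It was the highest of the 4 libraries for 77 of 103 tested nuclear members and 12 of 13 mitochondrial ones, against 25.1% of all genes tested. Without TMM scaling these counts were 72 and 12, against 19.5% of all genes. With 24 months replicate 2 left out, the 30-month library was highest for 88 nuclear members, against 35.4% of all genes, and for 12 mitochondrial ones. Against the 5-month library, of the same line label, at 30 months 36 nuclear members were 2-fold or more higher and 2 were 2-fold or more lower (all genes, 14.4% and 22.6%), and 11 of 13 mitochondrial mRNAs were at least 2-fold higher. The count of 36 was 20 when library totals were used in place of TMM, against 9.63% of all genes. The median log2 difference from 5 to 30 months was 0.80 for the nuclear members and 1.49 for the mitochondrial ones, beside -0.04 for all genes. In edgeR's quasi-likelihood test of 30 against 5 months, added after seeing the data and with the spread taken from the 24-month pair, 0 of 116 members were called, against 0.961% of all genes. At an unadjusted p under 0.05 there were 3 members, all higher at 30 months: COX6A1 (ENSDARG00000054588), cox7a1 and MT-ND3, with adjusted p of 0.378, 0.471 and 0.661. Of the 21535 genes tested, 134 were higher and 786 lower at that level, together 4.27%. Ranks of the libraries have no test.

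The 24-month replicates did not stand together. Against 5 months the nuclear members had median log2 differences of -0.11 in replicate 1 and -0.02 in replicate 2 (all genes, -0.08 and -0.34). These medians were near the 5-month level, with single members on both sides of it. In replicate 2, 16 of 103 were 2-fold or more above 5 months and 21 were 2-fold or more below (all 21535 genes, 3612 and 7885). In replicate 1 these counts were 2 and 4 (all genes, 2542 and 3243). In both replicates and both directions the members' share was below that of all genes. The summed nuclear share was 0.805 and 0.812 times the 5-month share. For the mitochondrial mRNAs the median was 0.16 in the first replicate but -1.81 in the other. All 13 were lowest of the 4 libraries in replicate 2, and 12 were at least 2-fold below replicate 1, against 39.4% and 34.7% of all genes; among the nuclear members the counts were 41 and 18 of 103. In the fit over both replicates, the nuclear median was -0.03 between 24 and 5 months and 0.91 between 30 and 24 months, and the mitochondrial median was -0.43 and 2.02, beside -0.06 and -0.14 for all genes. The mitochondrial median between 24 and 5 months was 0.24 with replicate 2 left out and -1.81 with replicate 1 left out, so its direction depends on replicate 2.

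**Figure D2:**
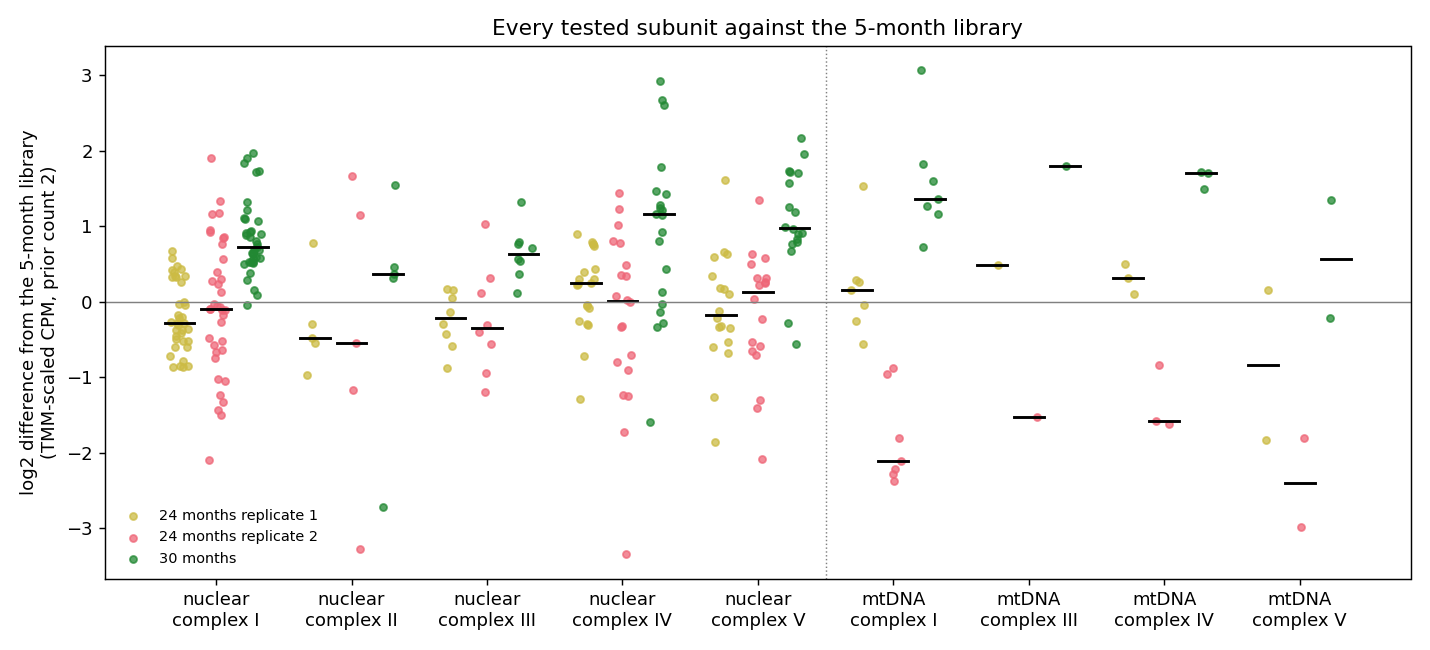
Each point is a tested subunit, placed by its log2 difference from the 5-month library (TMM-scaled CPM, prior count 2), by genome and complex, for 24 months replicates 1 and 2 and for 30 months; black lines are medians. The 30-month points lie mostly above 0, while replicate 2 lies on both sides of 0 for nuclear subunits and below 0 for every mitochondrial mRNA.

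The 13 mitochondrial mRNAs include the catalytic core of complex IV, and these were the most abundant. MT-CO1, which holds the site where oxygen is reduced, stood at 15239 CPM at 5 months, 21497 and 4942 CPM in the 24-month replicates and 49762 CPM at 30 months. MT-CO2, which accepts electrons from cytochrome c, stood at 4812, 5996, 1611 and 15811 CPM, and MT-CO3, the third core subunit, at 6685, 7184, 3753 and 18752 CPM. In each of them the 30-month library was highest and replicate 2 lowest, so the value at 30 months lay outside the range of the 24-month pair. The log2 difference of MT-CO1 between 30 and 24 months was 1.91 with a standard error of 2.53, with the replicates themselves at 21497 and 4942 CPM, and its adjusted p was 1.00 by edgeR's quasi-likelihood test.

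MT-CYB, the cytochrome b of complex III, stood at 4206 CPM at 5 months, 5910 and 1455 CPM at 24 months and 14672 CPM at 30 months. For MT-ATP6, the subunit through which protons pass in the ATP synthase, the values were 3889, 4351, 1111 and 9906 CPM. Both repeat the order of the complex IV core, with the 24-month pair on either side of the 5-month library.

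Of the 7 mitochondrial subunits of complex I, all part of its proton-pumping arm, MT-ND4 was the most abundant, at 3350, 3718, 719 and 10184 CPM. MT-ND1 stood at 1802, 2165, 514 and 4650 CPM, MT-ND2 at 2046, 1718, 475 and 4562 CPM, and MT-ND5 at 2018, 1967, 390 and 4874 CPM. These 4 differed from 5 to 30 months by between 2.23-fold (MT-ND2) and 3.04-fold (MT-ND4). MT-ND3, a small subunit at the hinge of the complex, had the widest range: 168 CPM at 5 months, 485 and 91.3 CPM at 24 months and 1412 CPM at 30 months. It was 8.39-fold higher at 30 than at 5 months, the largest such ratio of any member, and its adjusted p between 30 and 24 months was 0.742 by edgeR's quasi-likelihood test (log2 2.29, standard error 1.02). It made up 0.368% of the mitochondrial mRNA reads at 5 months and 1.02% at 30 months.

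Some mitochondrial mRNAs did not keep step with the rest. The mRNA of mt-atp8, a short subunit of the ATP synthase stalk, stood at 488 CPM at 5 months, 137 and 61.4 CPM at 24 months and 420 CPM at 30 months. It was the 1 mitochondrial mRNA for which the 30-month library was not the highest. Its reads amounted to 12.6% of those of MT-ATP6 at 5 months and to 3.15%, 5.53% and 4.24% in the later libraries. Its log2 difference between 24 and 5 months was -2.30 with a standard error of 0.91 (unadjusted p of 0.0118, adjusted p of 1.00, edgeR's quasi-likelihood test). For mt-nd4l, a complex I subunit, the values were 338, 230, 69.2 and 559 CPM, or 10.1%, 6.18%, 9.63% and 5.49% of the MT-ND4 reads. The coding regions of mt-atp8 and MT-ATP6, and of mt-nd4l and MT-ND4, overlap in mitochondrial DNA, and reads over an overlap are split or dropped by counting rules that the sources used here do not give.

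Replicate 2 also differed from the other libraries in the balance among mitochondrial mRNAs. MT-CO3 took 24.1% of its mitochondrial mRNA reads, against 14.6% at 5 months, 12.8% in replicate 1 and 13.6% at 30 months, and there were 0.760 MT-CO3 reads for each MT-CO1 read, against 0.334 to 0.439 in the other libraries. MT-ND6, the complex I subunit that is encoded on the opposite strand from the others, stood at 712, 868, 368 and 2512 CPM. Its reads equalled 94.3% of those of MT-ND5 in replicate 2, against 35.3% to 51.6% in the other libraries. Without the strand setting of the counting, reads of MT-ND6 and of antisense transcripts there cannot be told apart. The ratio of MT-CO2 to MT-CO1 reads was alike in all libraries, at 27.9% to 32.6%.

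**Figure D3:**
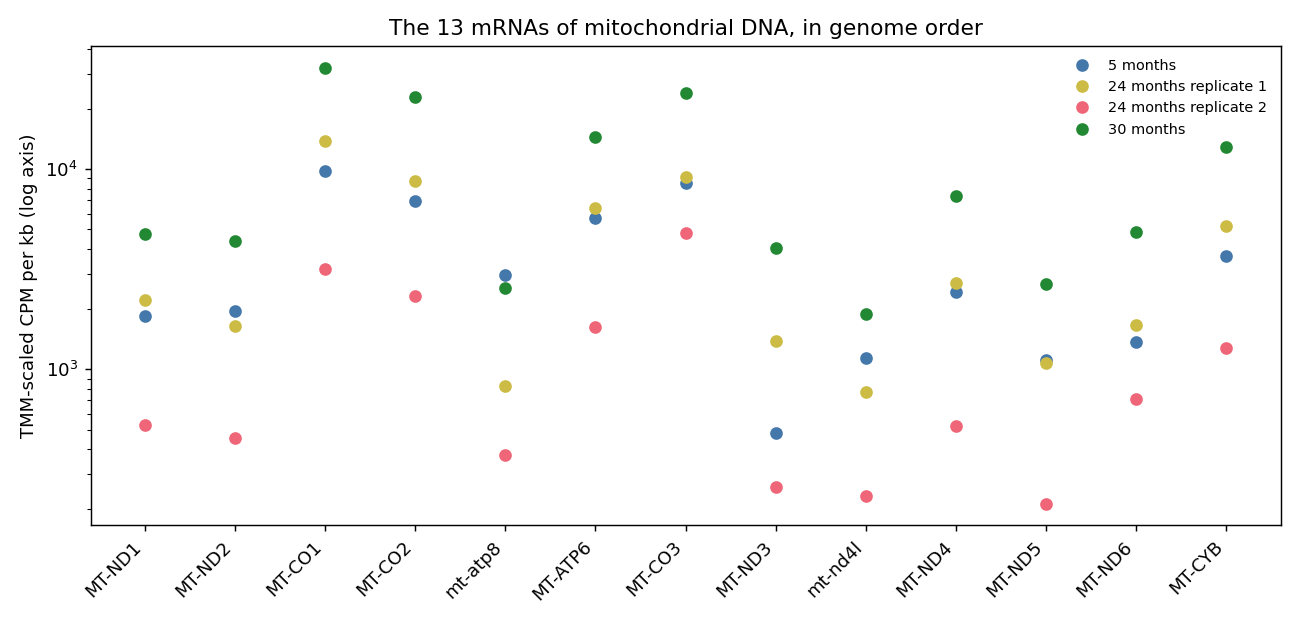
Points give the level of each of the 13 mitochondrial mRNAs per kilobase of gene length (TMM-scaled CPM per kb, log axis). The 4 libraries are shown, with the genes in their order along mitochondrial DNA. The 30-month library is on top for every mRNA but mt-atp8, and 24 months replicate 2 is at the bottom for all, nearest to the others at MT-CO3.

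For each read of a nuclear subunit there were 4.81 mitochondrial reads at 5 months, 7.42 and 1.44 in the 24-month replicates and 7.98 at 30 months. The balance between the genomes lay further apart between the replicates than among 5 months, replicate 1 and 30 months. Within complexes it was 4.94, 6.53, 1.14 and 8.12 for complex I, 4.69, 9.14, 1.90 and 11.5 for complex III, 20.2, 27.2, 7.70 and 29.1 for complex IV and 0.919, 1.30, 0.215 and 1.18 for complex V. In all of them replicate 2 was lowest. In complex V the 30-month library lay below replicate 1. These ratios do not depend on how libraries are scaled to each other.

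In complex I, the entry point for electrons from NADH, 32 of 37 nuclear subunits were highest at 30 months (all genes, 25.1%). None was 2-fold lower at 30 than at 5 months while 10 were at least 2-fold higher (all genes, 22.6% and 14.4%). The fold from 5 to 30 months had a median of 1.65 and ran from 0.969 to 3.91. The 7 core subunits, which bind the flavin and the iron-sulphur clusters, kept to a narrow band, from 1.42-fold to 2.10-fold. NDUFV1, the NADH-binding core subunit and the nuclear complex I gene with the highest mean level, stood at 232 CPM at 5 months, 225 and 420 CPM at 24 months and 363 CPM at 30 months, so that the 30-month library lay within the range of the 24-month pair. NDUFS1, the largest core subunit, stood at 236, 168, 311 and 412 CPM. The accessory subunits, which surround the core, spread from 0.969-fold to 3.91-fold.

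The widest differences in complex I were in small accessory subunits. The gene ndufa7 stood at 7.73 CPM at 5 months, 10.4 and 7.14 CPM at 24 months and 30.6 CPM at 30 months, which was 3.91-fold above 5 months (log2 1.80 between 30 and 24 months, standard error 1.12). NDUFA12 went another way, at 3.17, 4.04, 12.2 and 6.93 CPM, with replicate 2 highest. The carrier protein gene ndufab1b, an acyl carrier protein that also serves mitochondrial fatty acid synthesis, stood at 48.7, 28.2, 18.0 and 47.2 CPM, with both 24-month libraries below the others. For ndufa7, NDUFA12 and ndufab1b the adjusted p was 1.00 in each comparison of ages, by edgeR's quasi-likelihood test.

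Complex II, succinate dehydrogenase, is wholly nuclear and also belongs to the citric acid cycle. Its share of the counts was 0.0485%, 0.0571%, 0.0757% and 0.0790%, and it was the complex with the highest replicate 2 share relative to replicate 1, at 1.33 times. Of its 5 subunits, 2 were highest at 30 months (all genes, 25.1%), or 3 without TMM scaling (all genes, 19.5%). Its catalytic and its membrane subunits differed in their order. SDHA, the flavoprotein that oxidises succinate, stood at 185 CPM at 5 months, 317 and 589 CPM at 24 months and 543 CPM at 30 months. SDHB, the iron-sulphur subunit, stood at 123, 100, 272 and 153 CPM. In both, replicate 2 was highest after TMM scaling, while without it SDHA was highest at 30 months. SDHC, which anchors the enzyme in the membrane, stood at 51.3, 36.7, 22.8 and 70.7 CPM, and the SDHD gene ENSDARG00000030139, the other anchor, at 63.2, 43.3, 43.1 and 81.3 CPM, with the 30-month library highest in both.

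The reads of SDHA and SDHB per read of SDHC and SDHD were thus 2.67 at 5 months, 5.19 and 13.1 in the 24-month pair and 4.58 at 30 months. Replicate 2 stood apart from the other libraries in this ratio as well. A further gene with the symbol SDHD, ENSDARG00000055712, had 20 reads at 5 months, 1 at 30 months and 0 in replicate 2, too few for a comparison. The log2 difference of SDHA between 24 and 5 months was 1.29 with a standard error of 1.07 (adjusted p of 1.00, edgeR's quasi-likelihood test).

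In complex III, 7 of 8 nuclear subunits were highest at 30 months (all genes, 25.1%), with folds over 5 months from 1.08 to 2.51. UQCRFS1, the Rieske iron-sulphur protein and the most abundant of them, stood at 270 CPM at 5 months, 147 and 291 CPM at 24 months and 292 CPM at 30 months, so 3 libraries were level and replicate 1 was low. UQCRC1, a core protein of the matrix side, stood at 242, 180, 165 and 395 CPM, with the 30-month library above the rest. UQCRQ, a small subunit next to cytochrome b, stood at 32.2, 33.2, 14.0 and 80.8 CPM, a log2 difference between 30 and 24 months of 1.77 with a standard error of 0.87 (adjusted p of 0.953, edgeR's quasi-likelihood test). UQCRB, at 6.05, 6.82, 12.5 and 10.3 CPM, was the exception, with replicate 2 highest.

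Complex IV, cytochrome c oxidase, showed the widest spread among nuclear subunits, from 0.330-fold to 7.59-fold between 5 and 30 months. Of 20 tested genes, 14 were highest at 30 months and 11 were at least 2-fold higher than at 5 months (all genes, 25.1% and 14.4%). NDUFA4, now counted to this complex and its most abundant nuclear gene, stood at 216 CPM at 5 months, 176 and 173 CPM at 24 months and 481 CPM at 30 months. Its paralogues ndufa4b and NDUFA4L2 did not exceed 3.65 CPM in any library, and ndufa4l2b had 1 read in replicate 1 and none elsewhere. COX4I1, the main form of the regulatory subunit IV, stood at 195, 190, 112 and 460 CPM. Among genes without a paralogue in the set, cox6c stood at 72.7, 69.7, 44.6 and 170 CPM and COX7C at 28.1, 34.7, 28.5 and 63.0 CPM, with the 30-month library highest in each.

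In several paralogue groups of complex IV, 1 gene was highest at 30 months and its partner was not. In subunit VIa, COX6A1 (ENSDARG00000054588) stood at 53.4 CPM at 5 months, 90.4 and 125 CPM at 24 months and 406 CPM at 30 months, while cox6a1 (ENSDARG00000022438) stood at 131, 53.7, 104 and 43.3 CPM. The former took 28.9% of the reads of both genes at 5 months, 62.7% and 54.6% in the 24-month pair and 90.4% at 30 months, with exact binomial 95% intervals of 27.5% to 30.4% at 5 months and 89.7% to 91.0% at 30 months. COX6A1 was the member with the lowest unadjusted p for a slope over age, at 0.0275 (log2 1.01 per 10 months, standard error 0.37, edgeR's quasi-likelihood test), and its adjusted p was 1.00.

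In subunit VIIa, cox7a1, in mammals the form of heart and skeletal muscle, stood at 22.5 CPM at 5 months, 26.2 and 39.5 CPM at 24 months and 145 CPM at 30 months. Its partner COX7A2, the widely expressed form, stood at 21.0, 28.2, 36.2 and 20.6 CPM. The share of cox7a1 was 51.8%, 48.1%, 52.2% and 87.6%, alike in 3 libraries and higher at 30 months. Its log2 difference between 30 and 24 months was 2.14 with a standard error of 0.84 (adjusted p of 0.466, edgeR's quasi-likelihood test). In subunit VIII, cox8b, in mammals also a muscle form, stood at 44.5, 26.9, 18.7 and 124 CPM and cox8a at 48.3, 57.0, 132 and 38.3 CPM. The share of cox8b was 47.9%, 32.1%, 12.4% and 76.3%, so the replicates of 24 months lay below and the 30-month library above 5 months. Its log2 difference between 30 and 24 months was 2.44 with a standard error of 0.84 (adjusted p of 0.245, edgeR's quasi-likelihood test).

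Other paralogue groups differed less or in another order. The COX5B gene ENSDARG00000068738 stood at 57.5, 54.4, 72.8 and 140 CPM and its namesake ENSDARG00000015978 at 83.7, 110, 169 and 91.8 CPM, so the share of the former was 40.7%, 33.1%, 30.1% and 60.4%. In subunit VIb, cox6b2 stood at 122, 151, 36.9 and 328 CPM and cox6b1 at 19.9, 23.8, 19.9 and 18.1 CPM, which gave cox6b2 86.0%, 86.4%, 65.0% and 94.8% of the reads. In subunit IV, cox4i1l stood at 6.24, 11.7, 2.59 and 38.4 CPM and took 2.96%, 5.40%, 2.01% and 7.44% of the reads of its group. COX4I2, known in mammals as the lung form that responds to low oxygen, stood at 9.55, 15.9, 13.4 and 18.2 CPM, with shares of 4.53%, 7.33%, 10.5% and 3.53%. In subunit Va, cox5aa took 74.0%, 73.2%, 70.1% and 78.7% and COX5A the rest. Paralogues that are near-identical in sequence can exchange reads in counting, which would blur such shares.

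**Figure D4:**
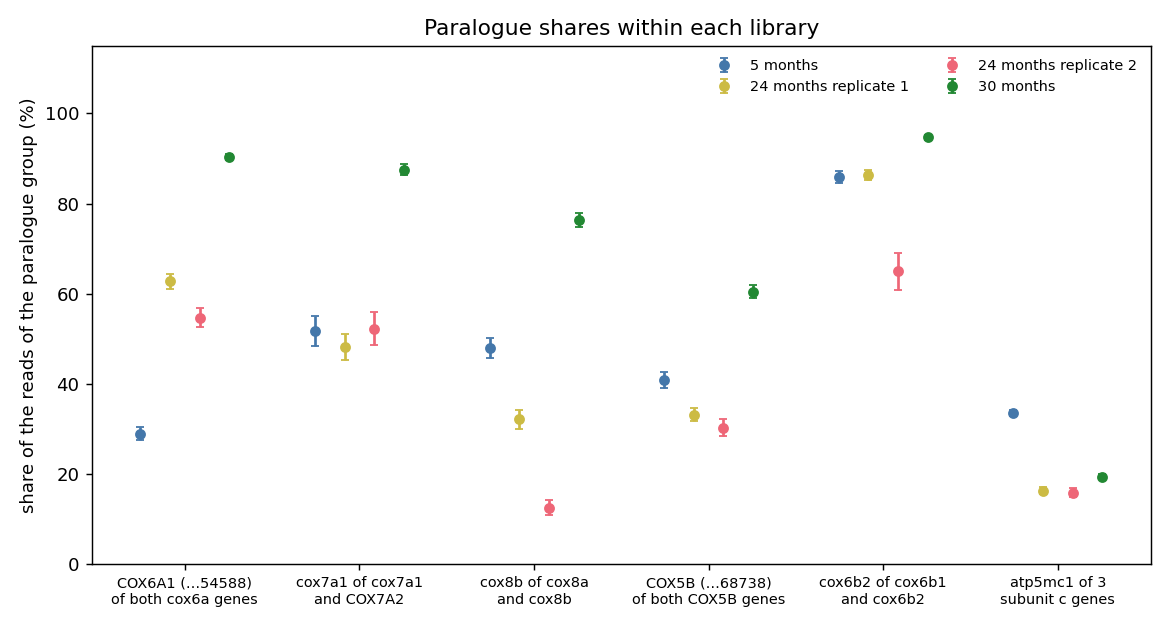
Points give the percent of the reads of a paralogue group that fell on 1 gene in each of the 4 libraries, with exact binomial 95% intervals that cover counting error only. The 30-month library is highest for the 5 genes of complex IV, at 60.4% to 94.8%, while atp5mc1 of complex V is highest at 5 months, at 33.5%.

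Because some of these paralogues are muscle forms in mammals, the levels of skeletal muscle markers are given beside them. The 19 marker genes together took 3.84% of the counts at 5 months, 2.04% and 1.22% in the 24-month pair and 2.55% at 30 months. Of 18 tested, 6 were 2-fold or more above their 5-month level at 30 months and 6 were 2-fold or more below it (all genes, 14.4% and 22.6%). The median log2 difference from 5 to 30 months was -0.41. Between 30 and 24 months the median was 1.34 (all genes, -0.14), with 16 of the 18 higher at 30 months and 2 lower. The 30-month library lay above both 24-month libraries for 14 of the 18 (all genes, 32.7%). The most abundant of these markers, actc1b, stood at 15920, 6787, 5363 and 7001 CPM. The 30-month library was highest for 7 of the 18 (all genes, 25.1%). Among these were myoglobin (mb) at 111, 40.8, 116 and 343 CPM, ckma at 3477, 2757, 2976 and 7567 CPM and actc1a at 26.5, 6.21, 2.48 and 62.8 CPM. Of the 18, 2 were called higher at 30 than at 24 months by edgeR's quasi-likelihood test, actc1a (adjusted p of 0.0261) and the TNNI2 gene ENSDARG00000005841 (adjusted p of 0.00185). By the same test 1 was called lower at 24 than at 5 months, the ACTA1 gene ENSDARG00000055618 (log2 -4.28, adjusted p of 0.00295). It stood at 326, 27.8, 5.59 and 71.1 CPM, highest at 5 months. Of the 19, a TNNT3 and a TNNI2 gene had no read in replicate 2. The part of muscle RNA in the differences of cox7a1, cox8b or any other member was not tested.

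In complex V, the ATP synthase, 16 of 18 nuclear subunits were highest at 30 months (all genes, 25.1%). At least 2-fold higher than at 5 months were 8 of them (all genes, 14.4%). Complex V held the most abundant nuclear members, with 0.545%, 0.396%, 0.445% and 0.814% of the counts. ATP5F1B, the catalytic beta subunit of the head, stood at 1450 CPM at 5 months, 905 and 1695 CPM at 24 months and 2692 CPM at 30 months. ATP5F1A, the alpha subunit, stood at 1171, 771, 1450 and 2029 CPM. In both, replicate 1 was lowest and replicate 2 lay above 5 months, the reverse of the order of the replicates in the mitochondrial mRNAs. The log2 difference of ATP5F1B between 30 and 24 months was 1.05 with a standard error of 1.30 (adjusted p of 1.00, edgeR's quasi-likelihood test).

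The ring of subunit c, through which protons turn the motor, is encoded by 3 genes that give the same mature protein in mammals. Here atp5mc3b stood at 390, 311, 463 and 776 CPM, ATP5MC3 at 104, 43.2, 71.4 and 70.5 CPM and atp5mc1 at 248, 68.6, 100 and 204 CPM. The latter pair were the 2 nuclear subunits of complex V for which 30 months was not the highest library. The share of atp5mc1 was 33.5% at 5 months, 16.2% and 15.8% in the 24-month pair and 19.4% at 30 months, so the 5-month library stood apart and the replicates agreed within 1 percentage point. Its log2 difference between 24 and 5 months was -1.56 with a standard error of 0.86 (unadjusted p of 0.0687, adjusted p of 1.00, edgeR's quasi-likelihood test).

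Several small membrane subunits of the synthase, which help to join it into dimers, were lowest in replicate 2. Of all 18 nuclear subunits of complex V, 6 (33.3%) were lowest in that library, a share below the 39.4% of all genes. The gene atp5md stood at 15.3 CPM at 5 months, 24.3 and 9.72 CPM at 24 months and 69.5 CPM at 30 months. For atp5meb the values were 43.6, 55.2, 10.2 and 130 CPM, for atp5mea 9.31, 28.7, 5.69 and 36.4 CPM, and for atp5mj 54.4, 61.7, 20.4 and 130 CPM. In each, the 30-month library was highest and replicate 2 lowest. The same held for atp5mf, subunit f, at 43.9, 68.4, 37.5 and 145 CPM, but not for ATP5MG, subunit g, at 80.9, 122, 206 and 264 CPM, where replicate 2 lay above replicate 1. The summed reads of these 6 genes per read of ATP5F1A and ATP5F1B were 0.0944 at 5 months, 0.215 and 0.0920 in the 24-month pair and 0.164 at 30 months, so replicate 2 was close to 5 months and replicate 1 was highest. The log2 difference of atp5md between 30 and 24 months was 2.03 with a standard error of 0.92 (adjusted p of 0.795, edgeR's quasi-likelihood test).

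Among the members that are not subunits, the 30-month library was highest for 3 of 7 assembly factors of complex I and for 0 of 4 of complex II (all genes, 25.1%). Against 5 months, 4 of the 7 were higher at 30 months, 0 of them at least 2-fold. All 4 of complex II were higher, 3 of them at least 2-fold (all genes, 14.4%), but this count rests on TMM scaling and on few reads. Their summed share of the counts, without TMM scaling, was 1.66 times the 5-month share at 30 months (506 and 942 reads). NDUFAF1, which helps to build the membrane arm, stood at 23.4, 20.1, 42.0 and 46.5 CPM. NDUFAF4 stood at 4.32, 6.30, 13.7 and 3.52 CPM, with the 30-month library lowest, and NDUFAF6 at 8.78, 5.43, 4.86 and 12.1 CPM. The inhibitor gene atp5if1a, whose product stops the synthase from running backwards, stood at 8.26, 16.6, 24.8 and 16.9 CPM, and its paralogue atp5if1b at 83.0, 94.2, 82.6 and 186 CPM. COX7A2L, which helps to join complexes III and IV, stood at 48.6, 46.7, 48.2 and 95.1 CPM, level in 3 libraries and higher at 30 months.

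Levels of different genes can be set side by side per kilobase of gene length, as recovered from the deposited values. On this scale the mitochondrial mRNAs stood far above the nuclear ones. Their median was 2426 CPM per kb at 5 months, 2220 and 527 in the 24-month pair and 4841 at 30 months, against 63.8, 50.0, 54.4 and 107 CPM per kb for the nuclear subunits. Among the nuclear subunits complex V had the highest median in every library, at 134, 113, 128 and 252 CPM per kb, and complex II the lowest, at 49.7, 35.5, 29.1 and 68.5 CPM per kb. Complexes I, III and IV had medians between them. The complex II median is over 5 genes, and 1 is the SDHD gene of few reads, ENSDARG00000055712, at 0.0 to 1.03 CPM per kb. The lowest rank of complex II rests on that gene. SDHA, at 64.5, 110, 205 and 189 CPM per kb, and SDHB, at 102, 83.1, 225 and 127, stood above the complex I medians. Those were 50.9, 42.0, 47.9 and 79.3 CPM per kb. SDHC and the other SDHD gene stood below the complex I medians in every library. The 7 assembly factors of complex I had medians of 5.41, 4.90, 7.29 and 4.41 CPM per kb, lowest at 30 months. Their summed share of the counts, which has no TMM scaling, was instead highest at 30 months, at 0.00749%, 0.00694%, 0.00795% and 0.00840%. NDUFAF1 alone held 885 of the 1718 reads of these genes at 30 months. The median and the share thus place the 30-month library at opposite ends, and neither is taken as the level of the group.

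By the gene lengths recovered from the deposited values, nuclear subunits are short, with a median of 889 bases. The shorter 44 of them had a median log2 difference of 0.36 between replicates 2 and 1 of 24 months, while all 1601 tested genes up to that length had a median of -0.84. From 5 to 30 months the same subunits had a median of 0.90 and all genes that short a median of 0.12. The longer 44 subunits had medians of 0.24 and 0.74, beside -0.14 and -0.03 for the 18850 longer genes, whose lengths differ: their median length was 2403 bases, against 1392 bases for these subunits.

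Other mitochondrial and energy pathways were counted for comparison, again against 25.1% of all genes highest at 30 months, or 19.5% without TMM scaling. Of all genes, 14.4% were at least 2-fold higher at 30 than at 5 months and 22.6% at least 2-fold lower. Of 22 genes of the citric acid cycle and pyruvate oxidation, 18 were highest at 30 months (19 without TMM scaling) and 8 were at least 2-fold higher than at 5 months, with a median log2 difference of 0.80, the same as for the nuclear members. CS, the citrate synthase that opens the cycle, stood at 339, 275, 295 and 866 CPM, and MDH2, the malate dehydrogenase, at 533, 584, 646 and 1416 CPM. Of 28 glycolysis genes, 13 were highest at 30 months (15 without TMM scaling), 6 were 2-fold or more above 5 months and 5 were 2-fold or more below, with a median of 0.43. The PFKM gene ENSDARG00000014179, the muscle form of phosphofructokinase, stood at 75.8, 19.4, 14.3 and 139 CPM and was the 1 glycolysis gene called higher at 30 than at 24 months (adjusted p of 0.0466, edgeR's quasi-likelihood test). None of the citric acid cycle genes was called.

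Lists of genes that build, serve and regulate mitochondria were counted in the same way. Of 73 genes of the mitochondrial ribosome, 40 were highest at 30 months but 17 without TMM scaling, a share near that of all genes, and the median log2 difference from 5 to 30 months was 0.26. Of 35 tested electron carriers and helpers outside the rule, 17 were highest at 30 months (12 without TMM scaling), with a median of 0.42. Among them CYC1 stood at 214, 166, 273 and 343 CPM and cycsb, a cytochrome c gene, at 206, 216, 75.3 and 317 CPM. Of 16 genes of mitochondrial biogenesis and transcription, 1 was highest at 30 months with or without TMM scaling, and the median was -0.14. PPARGC1A, a coactivator that raises mitochondrial content, stood at 7.25, 7.73, 6.72 and 7.09 CPM, and TFAM, which packs and transcribes mitochondrial DNA, at 13.1, 8.73, 9.83 and 12.4 CPM. POLRMT, the mitochondrial RNA polymerase, stood at 15.1, 9.82, 5.28 and 11.7 CPM. No gene of these 3 lists was called in the comparisons of ages by edgeR's quasi-likelihood test.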

How the data were processed

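Counts per gene (32105 Ensembl genes) are as the authors deposited them; the tools CASAVA 1.7, STAR 2.4.1d and featureCounts 1.4.6-p4 and the build GRCz10 stand in the submitters' processing notes. No source used here gives the annotation release or strand setting. Values of the other deposited table (named RPKM) are a score here, because its library totals repeat over rows with a period of 24 (0.391 to 2.05 times the library's own total); gene lengths were recovered from it for 21173 genes. Counts were tested with edgeR 4.0.16 in R 4.3.3 (TMM, filterByExpr by group, quasi-likelihood, models of group means and of age, Benjamini-Hochberg over 21535 genes), checked on simulated data. Each standard error was derived from the test, as the size of the log2 difference over the square root of its F statistic. Alternatives were DESeq2 1.42.0, limma-voom (limma 3.58.1), other scalings and filters. Single libraries, also 30 against 5 months, were set against each other by the log2 of TMM-scaled CPM (prior count 2) without a test; an edgeR test of 30 against 5 months in the model of group means was added after seeing the data. Shares have exact binomial 95% intervals, which cover counting error only.

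Members and lists were chosen with earlier results of these data known. Genes named are every mitochondrial mRNA, every gene of a complex IV or subunit c paralogue group, those with the highest mean or the largest and smallest differences in each complex (mean of at least 5 CPM), and those with the smallest p-values; NDUFS1, ATP5F1A, atp5mea, atp5meb, atp5mj, atp5mf, ATP5MG, atp5if1b, the SDHD gene with more reads and the genes of the other lists were picked after their values were seen. Nothing says that libraries came from separate fish, so the p-values measure only the spread between these samples, which may be technical. Symbols came from a gene name table (26269 genes) and often follow human names. No coordinates or sequences are given.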

Additional observations from a re-analysis of the deposited data

How the results depend on the processing

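No member was called under any setting run: library totals alone, scaling without mitochondrial mRNAs (the 13 mRNAs, the only mitochondrial genes known by name), DESeq2, no filter, a mean of at least 5 CPM, limma-voom, a newer edgeR dispersion setting, and, for the slope over age, either 24-month replicate left out. Calls over all genes moved widely. Between 24 and 5 months the 27 calls became 0 with library totals, 43 with DESeq2, 0 at a mean of at least 5 CPM, 3 with limma-voom and 0 with the newer setting. Between 30 and 24 months the 147 calls became 2, 77, 1, 7 and 1 in the same order. For the slope the 0 calls became 30 with DESeq2, and with a replicate left out they were 0 (without replicate 2) and 361 (without replicate 1). The cause was not tested.

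The median of the nuclear members between 24 and 5 months (-0.034) was -0.26 with library totals, which put the median of all genes at -0.26 in place of -0.06, 0.047 with DESeq2 and -0.47 in the second table. Between 30 and 24 months (0.91) it was 0.85 with DESeq2, 0.99 at a mean of at least 5 CPM, 1.27 in the second table and 0.97 for subunits alone; with a replicate left out it ran from 0.90 to 1.03. From 5 to 30 months (0.80) it was 0.51 with library totals, where all genes had a median of -0.32, and 0.70 in the second table; with a replicate left out it ran from 0.80 to 0.88. As percent of the counts outside mitochondrial mRNAs, the nuclear members took 1.18%, 0.961%, 0.918% and 1.90%, with the 30-month library highest as before. Chosen after seeing the data, the count of nuclear members at least 2-fold higher at 30 than at 5 months was taken with library totals (20 in place of 36) and without replicate 1 (36) or 2 (42), and the 77 nuclear members highest at 30 months were 79 and 88 without these. The median of the mitochondrial mRNAs between 24 and 5 months (-0.43) was -1.56 in the second table and ran from -1.81 to 0.24 with a replicate left out, turning direction without replicate 2. Between 30 and 24 months (2.02) it was 2.55 in the second table and ran from 1.38 to 3.26, and from 5 to 30 months (1.49) it was 1.07 and ran from 1.49 to 1.57. Among the named genes, each counted once per setting, uncalled differences turned sign in 35 of 492 cases between 24 and 5 months. In each of the other tests this was 11 of 492. Most of the 35 came from leaving out a replicate: 10 of 55 genes without replicate 1 and 18 of 55 without replicate 2. With a replicate left out, the comparisons of groups have no residual spread and give values without a test. No paired analysis was run, because the labels used here give no pairing of libraries across ages. The libraries of 5 and 30 months also have no second replicate. Depth limits the genes of few reads, such as the lesser SDHD gene.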
